A study of Mus musculus with 22 samples.

Results

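The genes described here are 6 members of the natural killer (NK) lectin receptor and stem cell antigen families, Klrk1, Klrc1, Klrd1, Klrg1, Klrb1f and Ly6a, together with Ly6c1 and Ly6c2. They were chosen by name from the expression table, 8 genes of 46297 rows, and all 8 passed the filter on low values among 14327 genes tested. Ly6c1 and Ly6c2, which encode Ly6C, a protein anchored in the surface membrane of memory and effector T cells, were read at lower levels in VHL-deficient than in wild-type (WT) CD8+ T cells of day 11 tumors, and Klrc1, which encodes the inhibitory receptor subunit NKG2A, was read at higher levels in T cells from day 7 tumors than in those from spleen. RNA sequencing was done on 22 libraries of P14 CD8+ T cells, which carry a transgenic T cell receptor, from C57BL/6 mice 6 to 12 weeks old.

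Each setting held a VHL-deficient and a WT group. Day 11 tumor cells had 3 libraries in each genotype. Day 7 tumor cells sorted without a split into subsets, day 7 tumor cells of the Trm (tissue-resident memory) sort, day 7 tumor cells of the nonTrm sort, and day 7 spleen cells had 2 libraries in each genotype. Each library stands for a pool of 5 mice, per the series design. All groups share the P14 receptor and the strain. How VHL was removed, the kind of tumor, the event counted as day 0 and what defined a Trm cell in the sort were not stated in the labels. Column 1 of the plate held the Trm and nonTrm libraries, column 2 the day 7 spleen and unsplit tumor libraries and column 3 the day 11 libraries. Day therefore cannot be told apart from plate column, and neither can sorted against unsplit tumor cells.

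NK lectin receptors are C-type lectin-like proteins that NK cells and antigen-experienced CD8+ T cells carry on their surface. Klrk1 encodes the activating receptor NKG2D, which binds stress-induced ligands such as the RAE-1 and H60 proteins. Klrc1 encodes NKG2A and Klrd1 its partner CD94, and the pair binds the nonclassical class I molecule Qa-1, encoded by H2-T23, and passes on an inhibitory signal through phosphatases. Klrg1 encodes an inhibitory receptor for cadherins that is commonly used to mark terminally differentiated effector CD8+ T cells, and tissue-resident cells usually carry little of it. Klrb1f belongs to the NKR-P1 receptors. Ly6a encodes Sca-1, and with Ly6C it is a glycolipid-anchored protein of the Ly6 family that is known to respond to interferon and to mark activated and memory T cells. VHL belongs to a ubiquitin ligase and marks the hypoxia-inducible factors for destruction when oxygen is present.

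The 5 lectin receptor genes lie on mouse chromosome 6 and the 3 Ly6 genes on chromosome 15 (GENCODE M21 annotation of mm10). Klrg1 spans chr6:122270596-122282882 on the minus strand, apart from the others. Klrb1f (chr6:129045901-129057464, plus strand), Klrd1 (chr6:129591782-129598775, plus strand), Klrk1 (chr6:129610323-129623864, minus strand) and Klrc1 (chr6:129666015-129678973, minus strand) are neighbours in the NK gene complex. Ly6a lies at chr15:74994877-74998031, Ly6c1 at chr15:75044018-75048830 and Ly6c2 at chr15:75108158-75111970, all on the minus strand.

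Ly6c1 and Ly6c2 are near copies of each other, which bears on how reads are shared between them, and the promoters of both are shown because both genes were lower in VHL-deficient cells. Their longest coding transcripts are identical at 802 of 822 aligned bases (97.6%). Of the 50-base windows of the coding transcripts, 14.3% of those of Ly6c1 also occur in Ly6c2 and 30.8% of those of Ly6c2 also occur in Ly6c1, so most windows of that length tell the 2 genes apart and some do not. Neither the read length nor the treatment of reads that match several genes was stated, and the split of reads between the 2 genes is uncertain for that reason. The promoters below come from RefSeq on GRCm38.p6 and run 5′ to 3′ over 250 bases before and 50 after a start on the minus strand, at chr15:75048788-75049087 for Ly6c1 and chr15:75111922-75112221 for Ly6c2. Of 266 aligned bases 208 are identical (78.2%), and capitals mark runs of at least 12 bases that occur in both, 47 bases in each promoter.
Ly6c1: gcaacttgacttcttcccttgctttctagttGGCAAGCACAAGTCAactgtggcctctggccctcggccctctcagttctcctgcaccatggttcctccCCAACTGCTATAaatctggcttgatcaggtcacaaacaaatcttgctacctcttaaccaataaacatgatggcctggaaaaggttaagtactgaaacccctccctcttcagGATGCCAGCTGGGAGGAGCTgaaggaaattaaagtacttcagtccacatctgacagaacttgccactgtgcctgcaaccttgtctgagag
Ly6c2: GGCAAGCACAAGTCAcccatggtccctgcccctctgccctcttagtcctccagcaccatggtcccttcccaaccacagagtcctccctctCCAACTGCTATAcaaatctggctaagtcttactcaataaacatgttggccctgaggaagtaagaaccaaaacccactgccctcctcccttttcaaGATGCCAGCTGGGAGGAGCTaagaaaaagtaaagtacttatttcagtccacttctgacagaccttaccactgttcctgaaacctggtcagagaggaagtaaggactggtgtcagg

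The promoter table held 5 of the 8 genes, Klrk1, Klrc1, Klrb1f, Ly6c1 and Ly6c2. They were searched on both strands for the hypoxia-inducible factor core ACGTG or GCGTG, the STAT element TTCNNNGAA, the core of the interferon-stimulated response element and the T-box element GGTGTGA. The 2 promoters printed above held none of these strings, and a second annotated start of Ly6c1 held the T-box element, which 3.98% of 32851 promoters hold. The interferon core was in none of the 5 genes' promoters and is in 3.44% of all. Klrk1, which did not pass the test in any genotype comparison, held the hypoxia core, as 43.8% of promoters do. Klrb1f, which was lower in day 11 VHL-deficient tumor cells, held the STAT element, as 8.3% of promoters do. These promoters are shown with the match in capitals, Klrk1 at chr6:129623815-129624114 on the minus strand and Klrb1f at chr6:129045651-129045950 on the plus strand. A match describes the letters alone.
Klrk1: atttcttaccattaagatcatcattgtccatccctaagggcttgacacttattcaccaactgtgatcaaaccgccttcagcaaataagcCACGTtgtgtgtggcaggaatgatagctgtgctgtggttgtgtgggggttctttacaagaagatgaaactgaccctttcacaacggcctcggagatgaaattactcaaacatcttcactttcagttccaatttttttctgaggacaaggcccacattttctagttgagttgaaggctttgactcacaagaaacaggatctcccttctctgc
Klrb1f: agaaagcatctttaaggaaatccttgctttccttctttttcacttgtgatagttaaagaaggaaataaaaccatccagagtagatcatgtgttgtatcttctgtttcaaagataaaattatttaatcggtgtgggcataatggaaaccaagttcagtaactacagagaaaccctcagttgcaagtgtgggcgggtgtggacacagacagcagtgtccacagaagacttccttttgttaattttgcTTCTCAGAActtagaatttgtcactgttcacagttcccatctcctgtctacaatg

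The libraries held 3375558 to 10211060 reads, of which 26.9% to 45.7% fell on a ribosomal RNA gene and 2.89% to 12.1% on mitochondrial genes. The mitochondrial share was lower in VHL-deficient than in WT libraries in each setting. Vhl had 0 to 32 reads in each of the 11 VHL-deficient libraries and 60 to 280 reads in each of the 11 WT libraries, which checks the labels. All 8 CD8+ T cell markers were read in all 22 libraries. Of the 8 NK cell markers, Ncr1, a defining NK cell gene, had reads in 7 libraries with at most 30.9 scaled counts. Klrb1c, another of them, had reads in 21 libraries with at most 106 scaled counts. Klre1 (11.2 to 679) and Klri2 (0 to 121) carried the summed level in the tumor groups. They did not in spleen, where Klre1 averaged 11.3 and Klri2 0 in VHL-deficient cells, beside a summed mean of 56.0. In WT spleen cells these means were 24.0 and 4.01, beside 90.9. The second VHL-deficient nonTrm library had the largest ribosomal share, 45.7%. Each of its reads was worth 2.73 scaled counts, against 0.684 to 2.35 in the other libraries. The first VHL-deficient spleen library came close, with 42.3% ribosomal reads and 2.23 scaled counts per read. That library had the fewest reads outside ribosomal and mitochondrial genes (1780047) and the fewest genes with a read (17139). A scaled count is the number of reads after the authors' division by 1 size factor per library. In bulk libraries such as these, fewer cells that carry a transcript and less transcript per cell cannot be told apart.

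Per kilobase of its longest coding transcript, Klrd1 had the highest median level over the 22 libraries, 3956 scaled counts per kilobase, followed by Ly6c2 at 3563 and Ly6a at 2490.3. Klrk1 had a median of 1469 and Klrc1 of 1173 scaled counts per kilobase. Ly6c1 at 46.9, Klrg1 at 7.76 and Klrb1f at 5.22 scaled counts per kilobase were far less abundant. Klrg1 had at most 77 reads and Klrb1f at most 60 reads in any library, so their values rest on few reads.

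**Figure D1:**
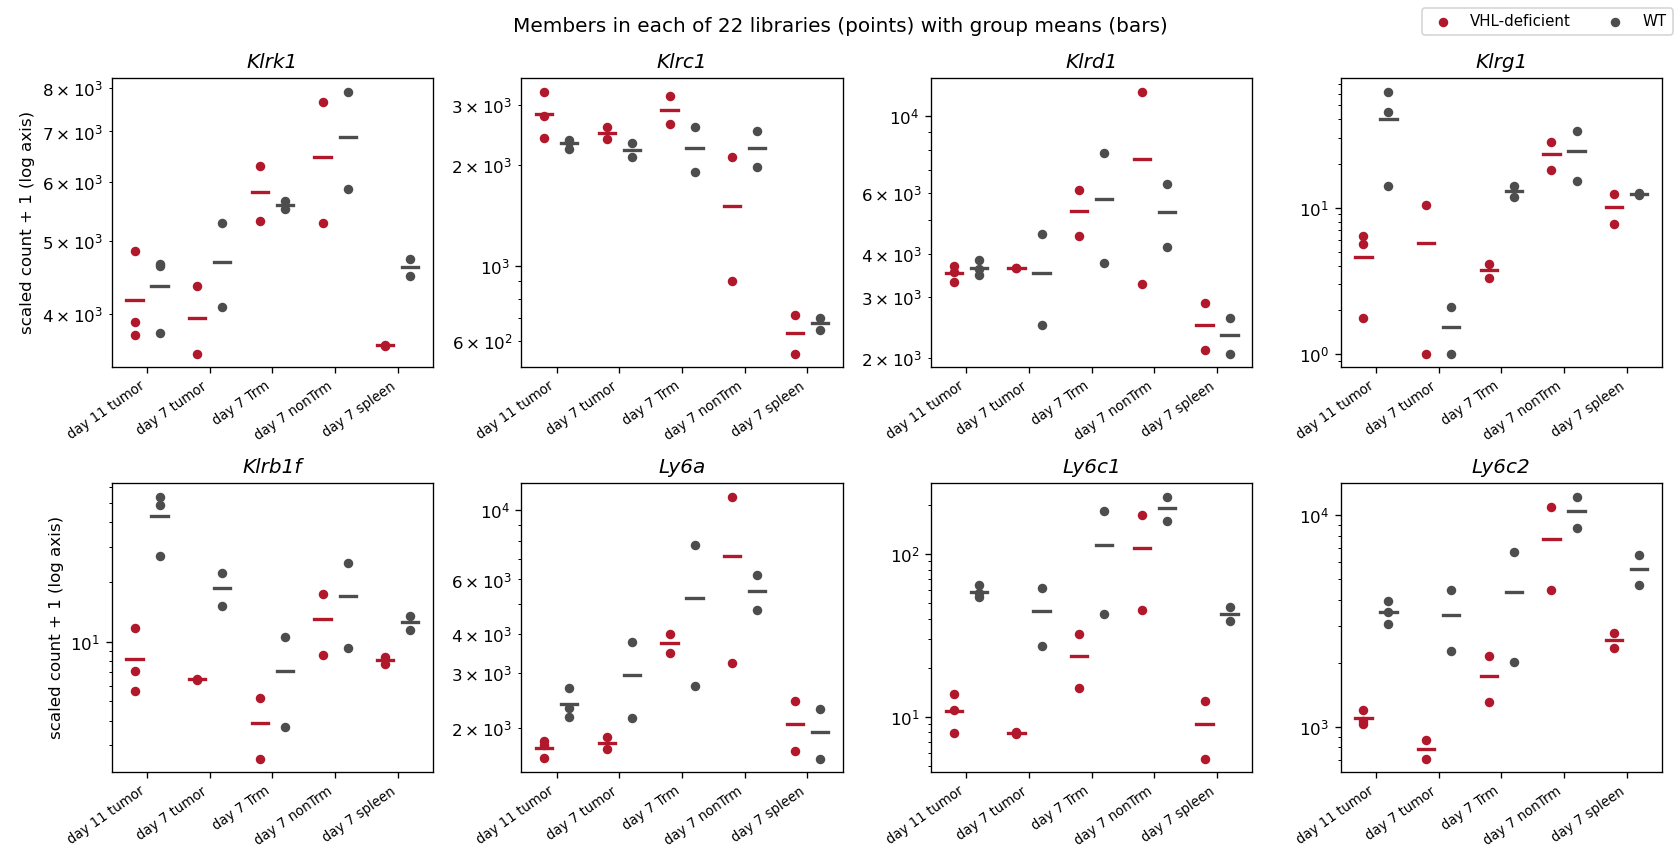
Scaled counts plus 1 (log axis) of the 8 genes in each of the 22 libraries, as points, with the mean of each group as a bar, in VHL-deficient (red) and WT (grey) cells in 5 settings. VHL-deficient points of Ly6c1 and Ly6c2 lie below the WT points in day 11 tumor, day 7 tumor and day 7 spleen cells, and Klrc1 is lowest in both spleen groups.

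The first comparison set VHL-deficient against WT cells in each setting. Ly6c2 fell in day 11 and in unsplit day 7 VHL-deficient tumor cells, Ly6c1, Klrg1 and Klrb1f fell in day 11 VHL-deficient tumor cells, and no member rose in any of the 5 settings. Klrk1, Klrc1, Klrd1 and Ly6a did not pass the test in any setting. In day 11 tumor cells 4 of 8 members were lower and 0 higher, beside 2.39% of all tested genes called lower, 4.47% called higher and 6.87% in either direction. In unsplit day 7 tumor cells 1 of 8 was lower, and 0 higher, beside 0.223% of all tested genes called lower, 1.68% called higher and 1.91% in either direction. A call here means a limma adjusted p under 0.05, with Benjamini-Hochberg adjustment over 14327 genes.

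Ly6c2 had 1197, 1028 and 1067 scaled counts in the 3 VHL-deficient day 11 tumor libraries, against 3501, 3073 and 3939.7 in the 3 WT libraries. The groups did not overlap, and the mean was 1097 ± 88.5 in VHL-deficient and 3504 ± 434 in WT cells (SD, n = 3 each). The log2 fold change, the difference between group means of log2(scaled count + 1), was -1.67 (SE 0.37, limma adjusted p = 0.00854), and Ly6c2 passed in all 31 alternatives. In unsplit day 7 tumor cells Ly6c2 had 702 and 864 scaled counts in VHL-deficient libraries, against 2294 and 4435 in WT libraries. All VHL-deficient libraries were again below all WT libraries, with a log2 fold change of -2.03 (SE 0.46, limma adjusted p = 0.0199). This call did not hold without the first (adjusted p = 0.24) or the second (0.0991) VHL-deficient library, without the second WT library (0.33; log2 fold change -1.56), or without the trend in the variance estimate (0.0706).

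In the other 3 settings Ly6c2 was lower on average in VHL-deficient cells and did not pass. In day 7 spleen cells it had 2785 and 2359 scaled counts in VHL-deficient libraries, against 6472 and 4707 in WT libraries, which did not overlap (log2 fold change -1.11, 95% interval -2.06 to -0.15, limma adjusted p = 0.269). When the 4 spleen libraries were fitted alone, the adjusted p was 0.00747. In Trm cells it had 2167 and 1311 scaled counts in VHL-deficient libraries, against 6705 and 2018 in WT libraries, so the groups overlapped and the WT libraries differed widely (log2 fold change -1.13, limma adjusted p = 0.122). Without the second WT Trm library the log2 fold change was -1.99 (adjusted p = 0.0128), and without the first it was -0.26 (adjusted p = 0.842). In nonTrm cells it had 4437 and 10994 scaled counts in VHL-deficient libraries, against 8695 and 12279 in WT libraries, and the groups overlapped (log2 fold change -0.56, limma adjusted p = 0.621). Without the first VHL-deficient nonTrm library the direction turned (log2 fold change 0.09, adjusted p = 0.923), and without the second it was -1.22 (adjusted p = 0.223).

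Ly6c1 was read at a small part of the Ly6c2 level and was lower on average in VHL-deficient cells in all 5 settings. In day 11 tumor cells it had 12.8, 6.92 and 9.91 scaled counts in VHL-deficient libraries, against 63.8, 53.1 and 56.2 in WT libraries. The groups did not overlap, and the log2 fold change was -2.47 (SE 0.55, limma adjusted p = 0.00826; 0.0546 without the second VHL-deficient library). In unsplit day 7 tumor cells it had 6.76 and 7.09 scaled counts in VHL-deficient libraries, against 26.2 and 61.1 in WT libraries (log2 fold change -2.37, limma adjusted p = 0.0807). In day 7 spleen cells it had 4.47 and 11.5 scaled counts in VHL-deficient libraries, from 2 and 14 reads, against 37.6 and 46.1 in WT libraries (log2 fold change -2.37, limma adjusted p = 0.0596). Neither day 7 difference passed, and the spleen difference passed with a further TMM scaling (adjusted p = 0.0482). In Trm cells it had 31.4 and 14 scaled counts in VHL-deficient libraries, against 182 and 41.6 in WT libraries (log2 fold change -2.01, limma adjusted p = 0.0617; 0.0495 with a pseudocount of 5). Without the second WT Trm library the Trm difference was -3.06 (adjusted p = 0.0166), and without the first it was -0.95 (adjusted p = 0.58). In nonTrm cells it had 44.4 and 172 scaled counts in VHL-deficient libraries, against 159 and 224 in WT libraries, which overlapped (log2 fold change -1.10, limma adjusted p = 0.464). That difference was -0.13 without the first VHL-deficient nonTrm library and -2.06 without the second (adjusted p = 0.924 and 0.179). Ly6c1 in unsplit tumor, spleen and Trm cells also passed when either VHL-deficient nonTrm library was left out of the shared fit (adjusted p between 0.0237 and 0.0332), and in unsplit tumor and spleen cells when either WT Trm library was left out (between 0.032 and 0.047).

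Since reads may be shared between the 2 genes, their summed counts were tested as well. The sum averaged 1107 ± 91.3 scaled counts in VHL-deficient and 3562 ± 435 in WT day 11 tumor cells (SD, n = 3 each), a log2 fold change of -1.68 (SE 0.37, limma adjusted p = 0.00839). Unsplit day 7 tumor cells averaged 790.1 ± 115 scaled counts in VHL-deficient and 3408 ± 1539 in WT cells (SD, n = 2 each), a log2 fold change of -2.04 (SE 0.46, limma adjusted p = 0.02). As for Ly6c2, this call was lost without the trend in the variance estimate (adjusted p = 0.0709), without the first (0.239) or second (0.0991) VHL-deficient library and without the second WT library (0.331). In the mean of the 5 VHL effects described below it was -1.31 (adjusted p = 4.93e-05). The sum does not depend on how counted reads were split between the copies. It may depend on whether reads that match both were counted, which was not stated. Ly6c1 made up 0.160% to 2.65% of the summed reads in a library. The sum is thus nearly a repeat of Ly6c2 and cannot bear on Ly6c1 alone.

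Klrg1, the receptor for cadherins, had 4.64, 5.38 and 0.762 scaled counts in VHL-deficient day 11 tumor libraries, against 43.8, 61.0 and 13 in WT libraries. These values stand on 12 reads over the 3 VHL-deficient libraries and 116 reads over the 3 WT libraries, and the groups did not overlap. The log2 fold change was -3.09 (SE 0.77, limma adjusted p = 0.0175). The call was lost without the third VHL-deficient library (adjusted p = 0.0931) and without the first (0.0766) or second (0.0854) WT library. In Trm cells Klrg1 had 3.14 and 2.33 scaled counts in VHL-deficient libraries, against 10.8 and 13.2 in WT libraries, and did not pass (log2 fold change -1.80, 95% interval -3.76 to 0.16, limma adjusted p = 0.233). In unsplit day 7 tumor cells Klrg1 had 0 and 12 reads in VHL-deficient libraries, against 1 and 0 in WT libraries, an order opposite to that at day 11 that rests on a single library. In spleen cells it had 6.70 and 11.5 scaled counts in VHL-deficient libraries, against 11.1 and 11.5 in WT libraries. In nonTrm cells it had 17.1 and 27.3 scaled counts in VHL-deficient libraries, against 32.4 and 14.3 in WT libraries. The groups overlapped in these 3 settings and no difference passed (limma adjusted p between 0.613 and 1.00).

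Klrb1f, of the NKR-P1 receptors, had 4.64, 10.8 and 6.10 scaled counts in VHL-deficient day 11 tumor libraries, against 52.9, 47.6 and 25.9 in WT libraries. The highest VHL-deficient library was below the lowest WT library, with a log2 fold change of -2.41 (SE 0.56, limma adjusted p = 0.011). The call was lost without the first VHL-deficient (adjusted p = 0.0644) or the first WT (0.0589) library. Unsplit day 7 tumor cells had 5.41 and 5.51 scaled counts in VHL-deficient libraries, against 14.2 and 21.2 in WT libraries (log2 fold change -1.50, 95% interval -2.93 to -0.08, limma adjusted p = 0.343). In spleen cells it had 6.70 and 7.38 scaled counts in VHL-deficient libraries, against 12.5 and 10.5 in WT libraries (log2 fold change -0.63, limma adjusted p = 0.788). Neither of these differences passed, and VHL-deficient and WT libraries did not overlap in either. In Trm and nonTrm cells the groups overlapped (log2 fold changes -0.78 and -0.32).

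Some markers of other cell types moved with these genes, and their part in the results was not tested. The summed NK marker level was 278 to 525 scaled counts in VHL-deficient and 521 to 973 in WT day 11 tumor libraries, and 1 of its 5 tested genes, Eomes, was called lower. The summed B cell marker level was 76.1 to 135 scaled counts in VHL-deficient and 311 to 591 in WT day 11 libraries. This list was carried by Ighm (38.4 to 1069.7 over all libraries), and 1 of its 2 tested genes was called lower in VHL-deficient cells in each of the 5 settings. Of 5 tested dendritic cell markers 1 was called higher and 2 lower at day 11, beside 4.47% higher and 2.39% lower of all tested genes. The summed neutrophil marker level was 38.9 to 154 scaled counts in VHL-deficient and 6.05 to 870 in WT day 11 libraries, which overlapped. It was highest in the second WT library, and the 1 tested gene of that list was not called. The monocyte and macrophage list, carried by Ccr2, summed to 2418 to 3527 scaled counts in VHL-deficient and 1233 to 2948 in WT day 11 libraries, which overlapped, and 0 of its 5 tested genes were called. Unsplit day 7 tumor cells had summed B cell markers of 195 to 197 scaled counts in VHL-deficient and 532 to 1018 in WT libraries, and summed NK markers of 249 to 329 in VHL-deficient and 389 to 550.3 in WT libraries. Their summed monocyte and macrophage markers were 2594 to 2639 scaled counts in VHL-deficient and 698 to 1444 in WT libraries, and 0 of the 5 tested genes of that list, and 0 of the 5 tested NK markers, were called there. Lyz2, which monocytes express strongly, reached at most 48.4 scaled counts in any library, and Csf1r at most 6.21.

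Klrk1, Klrd1 and Klrc1 were abundant in every library and showed small differences between genotypes. Klrk1 (NKG2D) had 4859, 3905 and 3747 scaled counts in VHL-deficient day 11 tumor libraries, against 4659, 3774 and 4629 in WT libraries, with a log2 fold change of -0.06 (95% interval -0.51 to 0.38). Klrd1 (CD94) had 3691, 3552 and 3329.7 scaled counts in VHL-deficient day 11 tumor libraries, against 3474, 3628 and 3834 in WT libraries, with a log2 fold change of -0.05 (95% interval -0.80 to 0.70). Both pairs of groups overlapped. Klrc1 (NKG2A) had 3293, 2779 and 2393 scaled counts in VHL-deficient day 11 tumor libraries, against 2230.1, 2340.1 and 2364 in WT libraries, which did not overlap, and did not pass (log2 fold change 0.28, 95% interval -0.24 to 0.79, limma adjusted p = 0.551). Over the other 4 settings the log2 fold changes of Klrk1 ran between -0.34 and 0.05, those of Klrd1 between -0.04 and 0.27 and those of Klrc1 between -0.69 and 0.39, and none passed. Klrk1 in spleen had 3634 and 3630.1 scaled counts in VHL-deficient libraries, against 4733 and 4496 in WT libraries, without overlap (log2 fold change -0.34, adjusted p = 0.666). Klrc1 in Trm cells had 3189 and 2630.5 scaled counts in VHL-deficient libraries, against 1903 and 2583 in WT libraries, and in unsplit day 7 tumor cells 2577 and 2382 in VHL-deficient libraries, against 2108 and 2314 in WT libraries, also without overlap. In nonTrm cells, without the first VHL-deficient library, Klrc1 (log2 fold change -1.30, adjusted p = 0.00271) and Klrd1 (1.19, adjusted p = 0.0431) passed, and without the second they did not (-0.08 and -0.66).

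Ly6a (Sca-1) had 1824, 1764 and 1606 scaled counts in VHL-deficient day 11 tumor libraries, against 2316, 2181 and 2685 in WT libraries. All VHL-deficient libraries were below all WT libraries, and the difference did not pass in the shared fit (log2 fold change -0.46, 95% interval -1.24 to 0.31, limma adjusted p = 0.496). It passed when the 6 day 11 libraries were fitted alone (adjusted p = 0.0199). At day 7, unsplit tumor cells had 1712 and 1875 scaled counts in VHL-deficient libraries, against 2158 and 3791 in WT libraries (log2 fold change -0.67, limma adjusted p = 0.528). In spleen, Trm and nonTrm cells its groups overlapped, with log2 fold changes of 0.09, -0.30 and 0.13.

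In spleen, Trm and nonTrm cells 0 of 8 members passed in either direction, beside 3.18% of all tested genes in spleen (2.44% higher, 0.733% lower), 10.1% in Trm cells (5.07% higher, 5.03% lower) and 2.32% in nonTrm cells (1.65% higher, 0.67% lower). At an unadjusted p under 0.05 in limma there were 2 members in spleen, beside 1904 of 14327 genes, 2 in Trm cells, beside 3710, and 1 in nonTrm cells, beside 2200. Voom on the recovered reads called 0 members in each of these 3 settings, beside 270 genes in spleen, 1953 in Trm and 287 in nonTrm cells. At day 11 the libraries of 5 members did not overlap with VHL-deficient lower, beside 17.9% of all tested genes, and those of 1 did not overlap with VHL-deficient higher, beside 20.6%. With 2 libraries a group such separation is common. In unsplit day 7 tumor cells 4 members did not overlap with VHL-deficient lower, beside 23.6% of all tested genes, and 1 with VHL-deficient higher, beside 25.5%. In spleen there were 4 lower, beside 19.8%, and 0 higher, beside 23.7%, and in Trm cells 2 lower, beside 25.0%, and 1 higher, beside 28.5%. In nonTrm cells there were 0 lower, beside 14.4%, and 0 higher, beside 19.6%. The median log2 fold change of the 8 members was -1.07 in day 11 tumor cells, beside 0.07 over all tested genes.

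**Figure D2:**
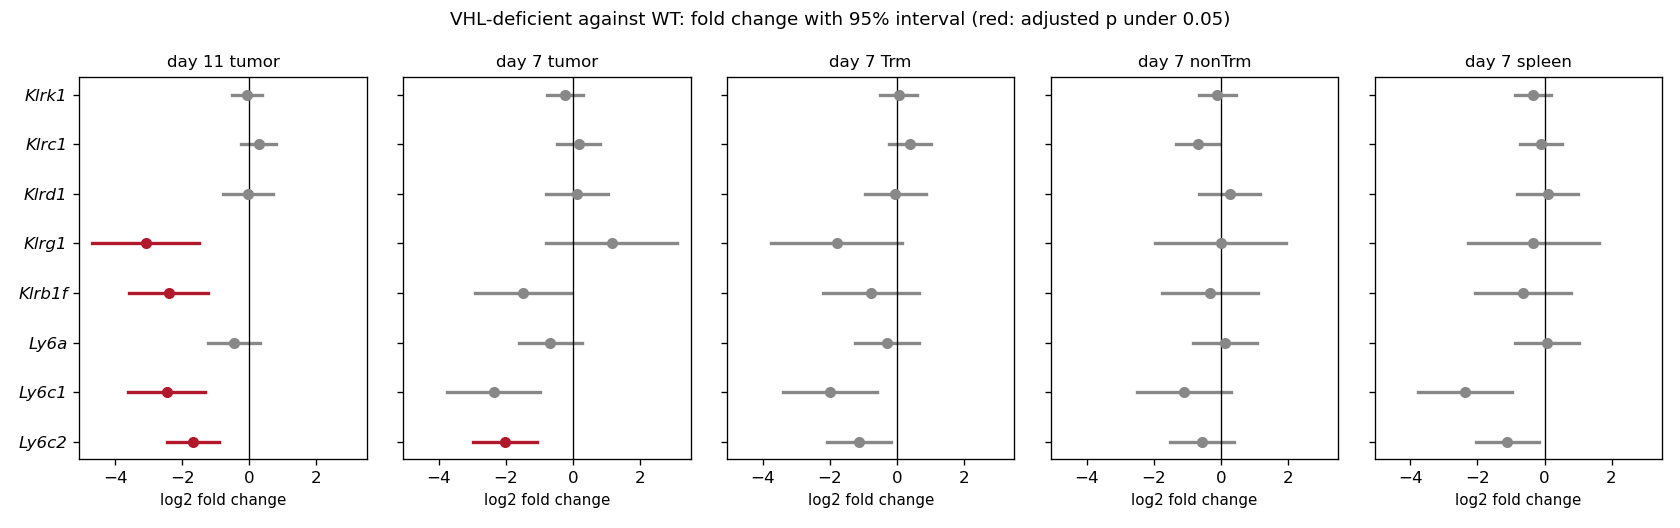
Log2 fold change of VHL-deficient against WT cells (points) with its 95% interval (lines) for the 8 genes in 5 settings, red where the limma adjusted p was under 0.05. Ly6c1 and Ly6c2 lie left of 0 in all 5 settings, Klrk1, Klrc1 and Klrd1 lie near 0 in most, and the called genes are Klrg1, Klrb1f, Ly6c1 and Ly6c2 at day 11 and Ly6c2 in day 7 tumor.

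The mean of the 5 VHL effects was taken as a further contrast of the same fit, chosen after the single settings had been seen. Ly6c1 (mean log2 fold change -2.06, SE 0.29, limma adjusted p = 2.12e-05), Ly6c2 (-1.30, SE 0.20, adjusted p = 5.14e-05) and Klrb1f (-1.13, SE 0.30, adjusted p = 0.00742) were lower in VHL-deficient cells. That made 3 of 8 members lower, beside 11.8% of all tested genes called lower, 15.5% called higher and 27.2% in either direction. Klrg1 (-0.81, adjusted p = 0.146; 0.0274 without the second VHL-deficient day 7 tumor library), Ly6a (-0.24, adjusted p = 0.386; 0.0451 without the second VHL-deficient nonTrm library) and Klrk1 (-0.14, 95% interval -0.38 to 0.10) did not pass. Klrd1 (0.07, 95% interval -0.32 to 0.47) and Klrc1 (0.01, 95% interval -0.27 to 0.28) averaged close to 0.

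The share of Ly6c1 among all Ly6c reads was described after the data had been seen and was given no test. In day 11 tumor cells it was 1.06%, 0.668% and 0.921% in VHL-deficient libraries, against 1.79%, 1.70% and 1.41% in WT libraries. It averaged 0.884% in VHL-deficient and 1.24% in WT unsplit day 7 tumor cells, 1.24% in VHL-deficient and 2.34% in WT Trm cells, and 1.27% in VHL-deficient and 1.79% in WT nonTrm cells. In spleen cells it averaged 0.322% in VHL-deficient and 0.773% in WT cells. The ranges of the 2 genotypes did not overlap in any of the 5 settings, so Ly6c1 was lower relative to Ly6c2 in VHL-deficient libraries. As few as 2 Ly6c1 reads stand behind a share, and the uncertain split of reads between the copies bears on it.

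**Figure D3:**
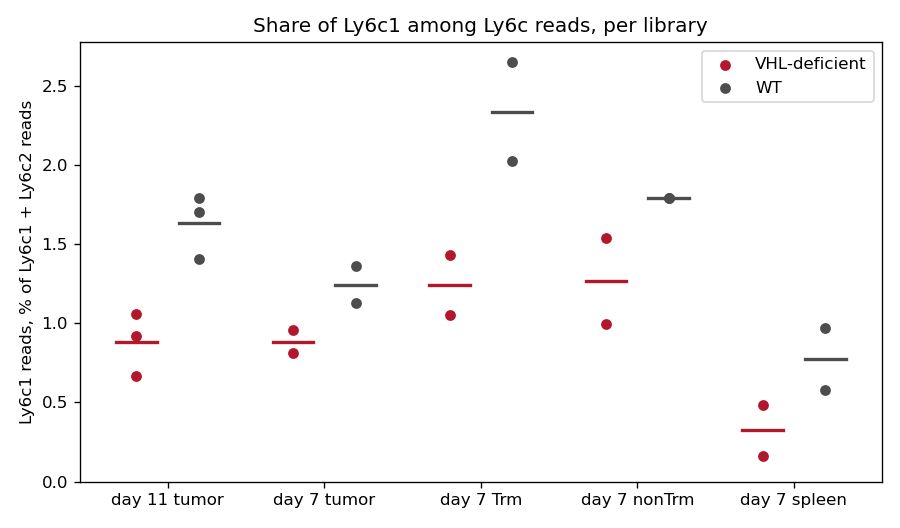
Reads of Ly6c1 as a percentage of the reads of Ly6c1 and Ly6c2 together, per library (points) with the group mean (bars), in VHL-deficient (red) and WT (grey) cells. The share is between 0.160% and 1.54% in VHL-deficient libraries and between 0.577% and 2.65% in WT libraries, and the VHL-deficient points lie below the WT points within each setting.

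Unsplit tumor cells were next set against spleen cells at day 7, which lay in the same plate column. Klrc1 rose in tumor cells of both genotypes. Klrc1 had 2577 and 2382 scaled counts in VHL-deficient tumor libraries, against 715 and 546 in VHL-deficient spleen libraries, a log2 fold change of 1.98 (SE 0.30, limma adjusted p = 0.000128). It had 2108 and 2314 scaled counts in WT tumor libraries, against 647 and 702 in WT spleen libraries, a log2 fold change of 1.71 (SE 0.30, limma adjusted p = 0.000429). All tumor libraries were far above all spleen libraries, and Klrc1 passed in both genotypes in all 31 alternatives. Its partner Klrd1 had 3635 and 3636 scaled counts in VHL-deficient tumor libraries, against 2879 and 2113 in VHL-deficient spleen libraries, and did not pass (log2 fold change 0.56, 95% interval -0.36 to 1.48; adjusted p = 0.435, or 0.0414 with these 4 libraries fitted alone). In WT cells Klrd1 differed by 0.54 (95% interval -0.38 to 1.46). Klrk1 differed by 0.11 in VHL-deficient and 0.01 in WT cells, and Ly6a by -0.18 in VHL-deficient and 0.58 in WT cells, none of which passed. Other cell markers moved in the same comparison, and their part in the result was not tested. The summed NK marker level was 249 to 329 scaled counts in VHL-deficient tumor and 51.7 to 60.3 in VHL-deficient spleen libraries. It was 389 to 550.3 in WT tumor and 73.3 to 109 in WT spleen libraries. In each genotype 2 of 5 tested NK markers, Klre1 and Klri2, were called higher. Over all tested genes 9.98% were called higher and 5.47% lower in VHL-deficient cells, and 13.2% higher and 8.31% lower in WT cells. In each genotype 1 of 2 tested B cell markers and 1 of 5 dendritic cell markers were called lower in tumor cells. Of 8 CD8+ T cell markers 1 was higher and 2 lower in VHL-deficient cells, and 1 higher in WT cells. Of 5 monocyte and macrophage markers 1 was higher in VHL-deficient cells, and 2 higher and 1 lower in WT cells. Of 4 CD4+ T cell markers 1 was higher in VHL-deficient and 2 in WT cells. The 1 endothelium gene tested was lower in WT cells, and 1 of 3 melanoma markers in VHL-deficient cells.

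Ly6c2 fell in VHL-deficient tumor cells, with 702 and 864 scaled counts, against 2785 and 2359 in VHL-deficient spleen libraries (log2 fold change -1.72, SE 0.46, limma adjusted p = 0.0139). This call was lost without the first VHL-deficient spleen library (adjusted p = 0.109) or the first VHL-deficient tumor library (0.123). WT cells had 2294 and 4435 scaled counts in tumor libraries, against 6472 and 4707 in spleen libraries, and did not pass (log2 fold change -0.79, limma adjusted p = 0.23). The difference between the 2 genotypes in this effect was -0.93 (95% interval -2.27 to 0.42, limma adjusted p = 0.62), so it was not shown to differ between them. Ly6c1 did not pass, with a log2 fold change of -0.06 in VHL-deficient cells (95% interval -1.46 to 1.34) and -0.05 in WT cells (95% interval -1.45 to 1.35).

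Klrg1 fell in WT tumor cells, with 1 read over 2 tumor libraries, against 19 reads over 2 WT spleen libraries (fitted log2 fold change -3.09, limma adjusted p = 0.0235). From the reads, spleen was 15.2 times higher, with an exact 95% counting interval of 2.42 to 633 that covers counting error only. The WT unsplit tumor mean (0.545 scaled counts) also lay below those of the sorted WT day 7 tumor cells, Trm (12.0) and nonTrm (23.3). Klrg1 was thus read in WT day 7 tumor cells of both sorts. The call was lost under 6 of 30 alternatives, among them voom on the recovered reads (adjusted p = 0.162), a pseudocount of 5 (0.0538), the 4 libraries alone (0.0569) and leaving out either WT spleen library (0.087 and 0.102) or the second WT tumor library (0.175). In VHL-deficient cells it had 0 and 9.45 scaled counts in tumor libraries, against 6.70 and 11.5 in spleen libraries, and did not pass (adjusted p = 0.273; 0.04 without the second VHL-deficient tumor library). Klrb1f had 5.41 and 5.51 scaled counts in VHL-deficient tumor libraries, against 6.70 and 7.38 in VHL-deficient spleen libraries. WT cells had the opposite order, with 14.2 and 21.2 scaled counts in tumor libraries, against 12.5 and 10.5 in spleen libraries. Neither difference passed, and the difference between them did not pass either (-0.87, 95% interval -2.89 to 1.15, limma adjusted p = 0.754). In all, 1 of 8 members was higher and 1 lower in each genotype, beside 9.98% higher and 5.47% lower of all tested genes in VHL-deficient cells, and 13.2% higher and 8.31% lower in WT cells.

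Trm cells were set against nonTrm cells at day 7 within each genotype. No member passed, 0 of 8 in VHL-deficient cells beside 0.00698% of all tested genes, and 0 of 8 in WT cells beside 0.3%. At an unadjusted p under 0.05 in limma there were 5 members in VHL-deficient cells, beside 1257 of 14327 genes, and 1 in WT cells, beside 1629. Voom called 0 members in both, beside 0 genes in VHL-deficient and 161 in WT cells. The libraries of 4 members did not overlap with Trm lower in VHL-deficient cells, beside 11.3% of all tested genes, and those of 1 with Trm higher, beside 13.3%. In WT cells there were 3 lower, beside 18.2%, and 0 higher, beside 21.5%. Ly6c2 had 2167 and 1311 scaled counts in VHL-deficient Trm libraries, against 4437 and 10994 in VHL-deficient nonTrm libraries, which did not overlap (log2 fold change -2.05, 95% interval -3.0 to -1.10, limma adjusted p = 0.328). It had 6705 and 2018 scaled counts in WT Trm libraries, against 8695 and 12279 in WT nonTrm libraries, which did not overlap either (log2 fold change -1.49, 95% interval -2.44 to -0.54, limma adjusted p = 0.162). Without the first WT Trm library this difference passed (log2 fold change -2.36, adjusted p = 0.0434), and without the second it was -0.62 (adjusted p = 0.599).

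Klrg1 had 3.14 and 2.33 scaled counts in VHL-deficient Trm libraries, against 17.1 and 27.3 in VHL-deficient nonTrm libraries (log2 fold change -2.61, 95% interval -4.56 to -0.65, limma adjusted p = 0.524). WT cells had 10.8 and 13.2 scaled counts in Trm libraries, against 32.4 and 14.3 in nonTrm libraries (log2 fold change -0.81, limma adjusted p = 0.812). Trm libraries were below nonTrm libraries without overlap in both genotypes, and neither difference passed. Klrc1 had 3189 and 2630.5 scaled counts in VHL-deficient Trm libraries, against 2105 and 903 in VHL-deficient nonTrm libraries (log2 fold change 1.07, 95% interval 0.44 to 1.70, limma adjusted p = 0.47). WT cells had 1903 and 2583 scaled counts in Trm libraries, against 2508 and 1966 in nonTrm libraries, and overlapped (log2 fold change -0.00, 95% interval -0.64 to 0.63). The VHL-deficient value of Klrc1 depends on which nonTrm library is kept.

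The 2 VHL-deficient nonTrm libraries differed in several members, and the second of them is the library with the largest ribosomal share. Klrd1 had 3272 and 11766 scaled counts in them, Ly6a 3232 and 11065, Ly6c2 4437 and 10994, and Klrc1 2105 and 903. Without the first, 5 members passed between VHL-deficient Trm and nonTrm cells, with Klrc1 higher in Trm cells (log2 fold change 1.68, adjusted p = 0.000516) and Ly6c2 (-2.70, 0.00121), Ly6c1 (-2.97, 0.0106), Ly6a (-1.56, 0.0172) and Klrd1 (-1.16, 0.0411) lower. Without the second, no member passed, and the log2 fold change was 0.46 for Klrc1 and -1.40 for Ly6c2 (adjusted p = 1.00 for both). A similar spread was present in WT Trm libraries, where Klrd1 had 7801 and 3755, Ly6a 7725 and 2741 and Ly6c1 182 and 41.6 scaled counts.

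**Figure D4:**
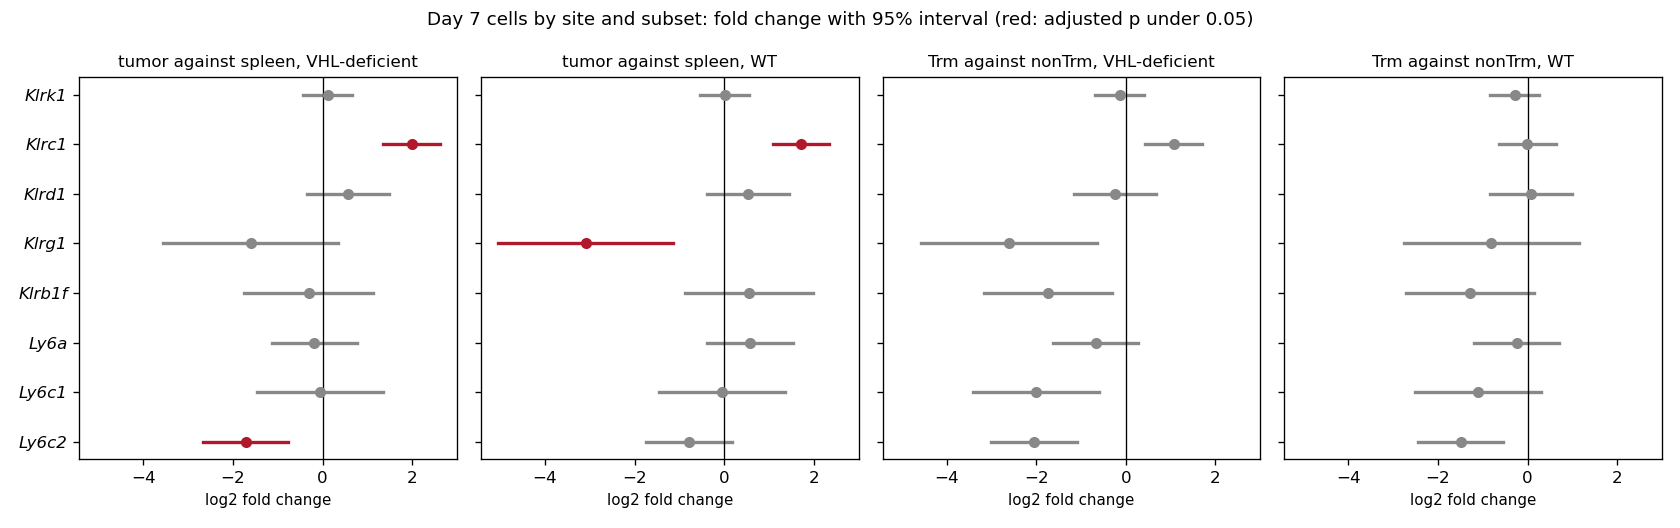
Log2 fold change (points) with its 95% interval (lines) of unsplit tumor against spleen cells and of Trm against nonTrm cells, in VHL-deficient and WT cells at day 7, red where the limma adjusted p was under 0.05. Klrc1 lies right of 0 in tumor against spleen in both genotypes, at 1.98 and 1.71, and no gene is red in Trm against nonTrm.

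Day 11 was set against day 7 in unsplit tumor cells, where day cannot be told apart from plate column. No member passed in either genotype, 0 of 8 beside 0.0% of all tested genes in each. At an unadjusted p under 0.05 in limma there were 0 members in VHL-deficient cells, beside 633 of 14327 genes, and 1 in WT cells, beside 484, and voom called 0 members and 0 genes in both. The 1 member was Klrg1, with 43.8, 61.0 and 13 scaled counts in WT day 11 libraries, against 1.09 and 0 in WT day 7 libraries (fitted log2 fold change 4.55, limma adjusted p = 0.199). From 116 reads at day 11 against 1 read at day 7, day 11 was 52.5 times higher, with an exact 95% counting interval of 9.24 to 2091. That fold rests on a low reference. The WT unsplit day 7 mean (0.545 scaled counts) lay below those of WT day 7 Trm (12.0) and nonTrm cells (23.3). VHL-deficient cells had 4.64, 5.38 and 0.762 scaled counts at day 11, against 0 and 9.45 at day 7 (log2 fold change 0.30). The difference between the genotypes in this effect was -4.25 (95% interval -6.77 to -1.72, limma adjusted p = 1.00). No member passed in the interactions of genotype with day, subset or site, beside 0.0%, 0.0% and 0.0698% (0.0209% higher, 0.0489% lower) of all tested genes, in that order. At an unadjusted p under 0.05 there was 1 member for day, beside 268 of 14327 genes, 1 for subset, beside 1156, and 0 for site, beside 1377. Voom called 0 members in each, beside 0, 0 and 2 genes.

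Related genes from the lists used here give the setting for the members. Of 25 other NK-complex lectin receptors and their relatives 13 were tested. In tumor against spleen 4 rose and 2 fell in VHL-deficient cells, and 5 rose and 3 fell in WT cells. Over all tested genes 9.98% rose and 5.47% fell in VHL-deficient cells, and 13.2% rose and 8.31% fell in WT cells. Klre1, a receptor of NK cells and T cells, averaged 187 ± 16.0 scaled counts in VHL-deficient tumor cells and 11.3 ± 0.219 in VHL-deficient spleen cells (SD, n = 2 each; log2 fold change 3.93, limma adjusted p = 1.17e-05). Klri2, its known partner, had 187 reads in VHL-deficient tumor cells and 0 in VHL-deficient spleen cells, at least 51.7-fold higher against a floor of 3 reads over the group. Klra5, of the Ly49 receptors, had 147 reads in WT tumor cells and 0 in WT spleen cells, at least 61.1-fold higher against the same floor. Klre1 and Klri2 are also the 2 NK markers called higher in this comparison. In VHL-deficient against WT cells 0 of the 13 rose, Klrc2 and Klri2 fell in spleen, and 0 were called in the other 4 settings. Klrc2 averaged 49.8 ± 5.44 in VHL-deficient and 168 ± 16.5 scaled counts in WT spleen cells (SD, n = 2 each; log2 fold change -1.73, limma adjusted p = 0.0149). Outside spleen its mean was higher in VHL-deficient than in WT cells and was not called. The means were 181 and 98.6 in day 11 tumor, 106 and 80.1 in unsplit day 7 tumor, 224 and 96.6 in Trm, and 154 and 148 in nonTrm cells. Klri2 had 0 reads in VHL-deficient and 7 in WT spleen cells, at least 2.32-fold lower against the floor. Over all tested genes 2.44% were called higher and 0.733% lower in VHL-deficient spleen cells.

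Of 13 tested adaptors and phosphatases that carry the receptors' signals 0 passed between genotypes in day 11 tumor, day 7 tumor, spleen and nonTrm cells. In Trm cells 2 rose in VHL-deficient cells, the lipid phosphatase gene Inpp5d (log2 fold change 0.98, limma adjusted p = 0.0221) and the kinase subunit gene Pik3cd (log2 fold change 1.31, limma adjusted p = 0.0487). Over all tested genes 5.07% were called higher in VHL-deficient Trm cells. In VHL-deficient tumor against spleen cells 2 of the 13 rose, Zap70 (log2 fold change 1.13, limma adjusted p = 0.00282) and Pik3r1 (1.27, adjusted p = 0.01). There 1 fell, Hcst, which encodes the NKG2D adaptor DAP10 (log2 fold change -2.05, limma adjusted p = 0.0178). In WT cells 1 rose and 1 fell. Over all tested genes 9.98% rose and 5.47% fell in VHL-deficient cells, and 13.2% rose and 8.31% fell in WT cells. Among ligands of the members 4 of 16 were tested. Cdh1, which encodes E-cadherin, a ligand of KLRG1, averaged 296 ± 50.6 scaled counts in VHL-deficient and 22 ± 35.8 in WT day 11 tumor cells (SD, n = 3 each; log2 fold change 5.40, limma adjusted p = 0.00295). It also rose in VHL-deficient spleen (log2 fold change 4.91, adjusted p = 0.039) and Trm cells (6.46, adjusted p = 0.00339). H2-T23, which encodes the ligand of CD94 and NKG2A, did not pass between genotypes in any of the 5 settings. Ulbp1, a ligand of NKG2D, rose in tumor against spleen cells in VHL-deficient (log2 fold change 1.37) and WT cells (2.09), and H60b, another, fell (-2.83 and -2.14 in the same order).

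Of 24 other Ly6 family genes 4 were tested. Ly6e did not pass between genotypes, whereas Ly6g5b rose in VHL-deficient spleen (log2 fold change 2.01, limma adjusted p = 0.0332) and Trm cells (1.79, adjusted p = 0.031), and Lypd6b in VHL-deficient day 7 tumor (2.05, adjusted p = 0.0315) and Trm cells (2.13, adjusted p = 0.00912). Of 18 interferon-responsive genes tested, 0 rose and 5 fell in VHL-deficient day 11 tumor cells, with a list median log2 fold change of -0.69 beside 0.07 over all tested genes. Those with the smallest adjusted p were Oasl2 (-2.16, adjusted p = 0.00312), Usp18 (-2.03, 0.0115), Bst2 (-1.15, 0.0346) and Ifit3 (-1.81, 0.0371). In spleen 2 fell, among them Ifit3 (-2.37, 0.0411), and in unsplit day 7 tumor, Trm and nonTrm cells 0 passed. Over all tested genes 2.39% were called lower in VHL-deficient cells at day 11 and 0.733% in spleen. Of 24 tested effector and memory genes 5 rose and 2 fell in VHL-deficient day 11 tumor cells, beside 4.47% higher and 2.39% lower of all tested genes. Eomes, a transcription factor of memory CD8+ and NK cells, fell (-3.66, adjusted p = 0.00878), as did the chemokine receptor gene Cxcr3 (-1.66, 0.00381), while Itgae, which encodes the residency integrin CD103, rose (3.63, 0.000306). Itgae rose in Trm against nonTrm cells too (VHL-deficient 5.49, limma adjusted p = 0.00135, and WT 62 reads against 0, at least 21.2-fold higher against the floor). It was the only 1 of the 24 called there in either genotype. Cd69 did not pass, at -0.14 in VHL-deficient and -0.93 in WT cells. Mean Cxcr6 was 20434 in Trm and 13297 in nonTrm VHL-deficient cells, but 8000 and 12069 in WT cells. In the same order, mean Itga1 was 523 and 408 in VHL-deficient cells, but 96.7 and 206 in WT cells. Cd69, Cxcr6 and Itga1 thus did not rise in both genotypes.

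The genes most like a member over the 10 group means were found by the root mean square difference of centred log2 values, for the 5 members whose means ranged over at least 2 log2 units. For Ly6c2 they were Fam26f (0.39 log2 units), Gimap9 (0.52) and Cxcr3 (0.57). For Ly6c1 they were Usp18 (0.70), Phf11a (0.71) and Bst2 (0.71), of which Usp18 and Bst2 are in the interferon-responsive list. For Klrc1 the nearest were Hspa5 (0.16), Thap6 (0.21) and Ehd1 (0.21). Hspa5, which encodes the chaperone BiP, averaged 9076 ± 1649.9 scaled counts in VHL-deficient tumor and 2451 ± 328 in VHL-deficient spleen cells (SD, n = 2 each). Klrb1f was nearest to Vamp5 (0.47), Rbm45 (0.53) and Cdkn2c (0.55). Klrg1, with few reads, had more distant neighbours in Tmem231 (0.86), Tbxas1 (0.90) and Prg4 (0.94). Klrk1, Klrd1 and Ly6a ranged over less than 2 log2 units.

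The order of the group means was alike for Ly6c1 and Ly6c2 at its ends. WT nonTrm cells had the highest mean of both, 191 ± 46.2 scaled counts of Ly6c1 and 10487 ± 2534 of Ly6c2 (SD, n = 2). VHL-deficient unsplit day 7 tumor cells had the lowest, 6.93 ± 0.231 and 783 ± 115 (SD, n = 2). The unsplit Ly6c2 mean lay below both sorted means in VHL-deficient cells (Trm 1739, nonTrm 7716). It did so in WT cells too (3364, against 4362 in Trm and 10487 in nonTrm). Sorted and unsplit groups lay in different plate columns, so their order cannot be told apart from plate column. For Ly6c2 the 4 lowest means were VHL-deficient spleen, Trm, day 11 tumor and day 7 tumor cells, and no neighbours among these 4 overlapped. Each of the 6 higher groups overlapped the next lower group. Klrc1 ran over VHL-deficient Trm (2909.5 ± 395), day 11 tumor (2822 ± 451) and day 7 tumor (2479 ± 138) cells at the top, and WT spleen (675 ± 38.8) and VHL-deficient spleen (631 ± 119) at the bottom. Klrk1 was highest in WT nonTrm cells (6887 ± 1449) and lowest in VHL-deficient spleen cells (3632 ± 2.80), the smallest range of group means among the 8 genes on the log2 scale (0.91).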

How the data were processed

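RNA was sequenced from 22 libraries of sorted cells. Per the submitters' processing notes, STAR, featureCounts and DESeq were used on mm10; versions and counting settings were not stated. The authors deposited 1 signal for each gene in each library. From its values, that signal is a number of reads scaled by the library's size factor, with 1 added. After the offset of 1 was removed, 100% of values were whole multiples of 1 step per library (tolerance 0.01 reads), which gave the reads. The table's header states 55 samples, against 22 columns.

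The 14327 genes that reached 10 scaled counts in 2 or more libraries entered limma 3.58.1 (R 4.3.3) as log2(scaled count + 1). A single model held the means of all 10 groups (22 libraries, 12 residual degrees of freedom), and eBayes used a mean-variance trend. Tests were two-sided, with Benjamini-Hochberg adjustment over all tested genes for each of 14 comparisons and 1 added comparison. A fold change on this scale understates the change of low genes. The script was tested on simulated data. The planned count model was replaced by voom on the recovered reads. Counting intervals are exact binomial and cover counting error only, and PCR copies are not independent molecules. Depth ran from 3375558 to 10211060 reads.

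All 8 members were named. From each other list up to 4 called genes with the smallest adjusted p were eligible, otherwise up to 2 with the highest level. The members and lists were chosen with earlier results of these data known. The mean of the 5 VHL effects, the Ly6c1 share, the motifs, the promoters shown and the use of the longest coding transcript (GENCODE M21) for levels per length were chosen after values had been seen. Alternatives were a TMM scaling, 2 other filters, 2 other pseudocounts, eBayes without trend, a replicate block, only the groups compared, voom and leaving out each library, 31 in all. Python 3.11.15 and Biopython 1.88 aligned sequences. Values of some listed genes are not reported here.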

Additional observations from a re-analysis of the deposited data

How the results depend on the processing

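Over 31 alternatives no called member changed direction. The main analysis made 5 calls between genotypes, 0 between Trm and nonTrm, 4 between tumor and spleen, 0 between days, 0 interactions, 3 for the mean VHL effect and 4 for summed Ly6c1 and Ly6c2. With a filter of 50 scaled counts in 2 libraries there were 3 genotype calls, as Klrg1 and Klrb1f were then not tested. Leaving out each library gave 3 to 10 genotype calls, 0 to 5 Trm calls, 3 to 5 tumor against spleen calls, 0 day calls, 0 to 1 interactions, 3 to 4 calls for the mean effect and 2 to 5 for the sum (2 without either VHL-deficient day 7 tumor library). The highest counts of genotype, Trm and interaction calls came without the first VHL-deficient nonTrm library (10, 5 and 1), and 9 genotype calls came without the second WT Trm library and 8 without the second VHL-deficient nonTrm library. The interaction was Klrc1 (1.68, adjusted p = 0.00793). A group left with 1 library was assumed to vary like the others. Same-numbered libraries of the 2 genotypes correlated at 0.0427 to 0.105 at day 11, where 6 of 6 libraries correlated best with their own number. Between genotypes at day 7 they correlated at 0.0291 in unsplit tumor, 0.118 in spleen, 0.236 in Trm and 0.271 in nonTrm cells. Between Trm and nonTrm cells the value was -0.181 in VHL-deficient and -0.148 in WT cells. Between sites and between days values ran from -0.105 to -0.0109. The labels do not tie the numbers to shared animals. With a replicate block the counts were 5, 0, 4, 0, 0, 3 and 4, and no call was added or lost. Depth limits Klrg1, Klrb1f and Ly6c1, which had as few as 0, 2 and 2 reads in a library. The planned count model on the recovered reads was not run, and voom, chosen after seeing the data, took its place.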
